A study of Mus musculus with 2 samples.

Results

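The solute carrier genes measured here carried symbols made of Slc, a family number, the letter a and a member number, with 2 genes of that form left out. They had 148 named probes, standing for 130 genes, among the 9762 named probes of the arrays. Of these, 112 probes of 108 genes were detected, which required 1 array or both to give a detection p-value under 0.01. The 108 genes were among 6702 genes detected in the same way over the whole array, and they came from 35 families by number. The pattern takes in 4 genes whose proteins are no carriers. These are Slc9a3r1 and Slc9a3r2, scaffold proteins that bind a sodium-proton exchanger, Slc4a1ap, named for binding an anion exchanger, and Slc7a6os, named for lying opposite a carrier gene. Carriers of other letters in the SLC35 family are not included.

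The RNA came from SN4741, a mouse line of immortalized dopaminergic neuronal cells kept at 33 C per the labels. The overexpression array was hybridised with RNA taken after 12 h of Oxi-beta overexpression, and the control array with RNA taken at 0 h. RNA of 3 samples was pooled for each of the 2 arrays. With 1 array per group, neither an error across samples nor a test could be given. Oxi-beta is a published name of Tnfaip8l1, although the labels give only Oxi-beta. The vector and any empty construct in control cells are not given in the sources used here, and hours in culture cannot be told apart from overexpression. Of 24613 probes, 8799 were detected on the overexpression array and 8814 on the control array.

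Solute carriers are membrane proteins that move nutrients, ions, metals, vitamins and metabolites by facilitated diffusion or by coupling to ion gradients. Most SLC25 proteins sit in the inner mitochondrial membrane, where they exchange nucleotides, phosphate and intermediates of metabolism between the matrix and the cytosol. In dopamine neurons, the plasma membrane carrier Slc6a3 and the vesicular carrier Slc18a2 take up dopamine and are among the markers used for the cell type.

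Neither of these carriers had a named probe. The same was true of all 7 monoamine transporters looked for, and of Th and Ddc, the enzymes of dopamine synthesis. Only probes that passed a detection p-value of 0.05 on 1 of the arrays could carry a symbol, so an undetected probe and an absent probe look the same here. Of 10 dopamine neuron markers, 3 transcription factor genes were detected (Nr4a2, Foxa2 and En1), at signals of 257 to 513 on the overexpression array and 255 to 498 on the control array, and their log2 differences (overexpression minus control, after normalization) were 0.24 for Nr4a2, 0.10 for Foxa2 and 0.15 for En1. Of 7 other neuron markers 3 had a named probe, and Snap25 and Slc17a6 among these were not detected. The third, Tubb3, was detected on the overexpression array only, with a signal of 202 there and 181 on the control array. Its difference was 0.38, or 0.093 when set against the lowest detected value of the control array. Of 10 glutamate and GABA transporters only Slc1a3 was detected. Of 6 mesenchymal markers 4 were detected, all with a negative difference and a median of -0.22. The filament gene Vim was the brightest, with a signal of 40776 on the overexpression array and 44580 on the control array and a difference of -0.066. The growth factor receptor gene Pdgfrb had signals of 943 on the overexpression array and 1298 on the control array and a difference of -0.40, while the matrix genes Sparc and Col1a1 were at -0.30 and -0.14. The part of these marker differences in the results was not tested.

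The solute carrier genes differed little between the arrays. Differences are given on the log2 scale as overexpression minus control, after background correction and quantile normalization, and a difference of 0.32 is the size used for counting. Of the 108 genes, 1 was higher by 0.32 or more on the overexpression array and 4 were lower by as much, while 2.7% of all detected genes were higher and 2.83% lower by that amount. At 1.5-fold, 0 solute carrier genes were higher and 1 was lower, against 0.582% and 0.433% of all genes. Among the 102 solute carrier genes detected on both arrays the counts at 0.32 were 1 higher and 2 lower, against 1.85% and 2.07% of the 6470 genes detected on both.

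The median difference of the 108 genes was 0.0072, and that of all 6702 genes was -0.0036. Of the 108 genes, 58 had a positive difference, 49 had a negative one, and Slc29a1 lay at 0.000 with equal normalized values. The differences had an SD of 0.17 among solute carrier genes and 0.22 among all genes, whose highest value was 6.29. With the sign ignored, however, the median difference was 0.11 among solute carrier genes and 0.090 among all genes. Among genes detected on both arrays it was 0.099 and 0.087, so the typical difference was no smaller in solute carrier genes. The central 95% of solute carrier genes ran from -0.33 to 0.26, and that of all genes from -0.34 to 0.33. These values describe 2 arrays and no spread between samples. Over the whole array, probes of the same gene detected on both arrays had differences that varied with a root mean square SD of 0.149. Such probes share the same 2 arrays, so this value describes disagreement between probes and holds no error between arrays or samples.

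Signals of solute carrier genes were lower than usual for a detected gene, with a median of 556 against 1037 over all genes. Of the 108 genes, 55 had a mean signal below 571, the bound of the dimmest tercile of all genes, where differences of either sign were widest. There, 90.9% of solute carrier genes and 87.2% of all genes differed by less than 0.32. In the middle tercile (26 genes) and the bright tercile (27 genes), 0 solute carrier genes differed by 0.32 or more. Few genes of any kind did so there, since 97.2% of all genes in the middle tercile and 99.0% in the bright tercile differed by less. The plot of difference against signal shows this narrowing.

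**Figure D1:**
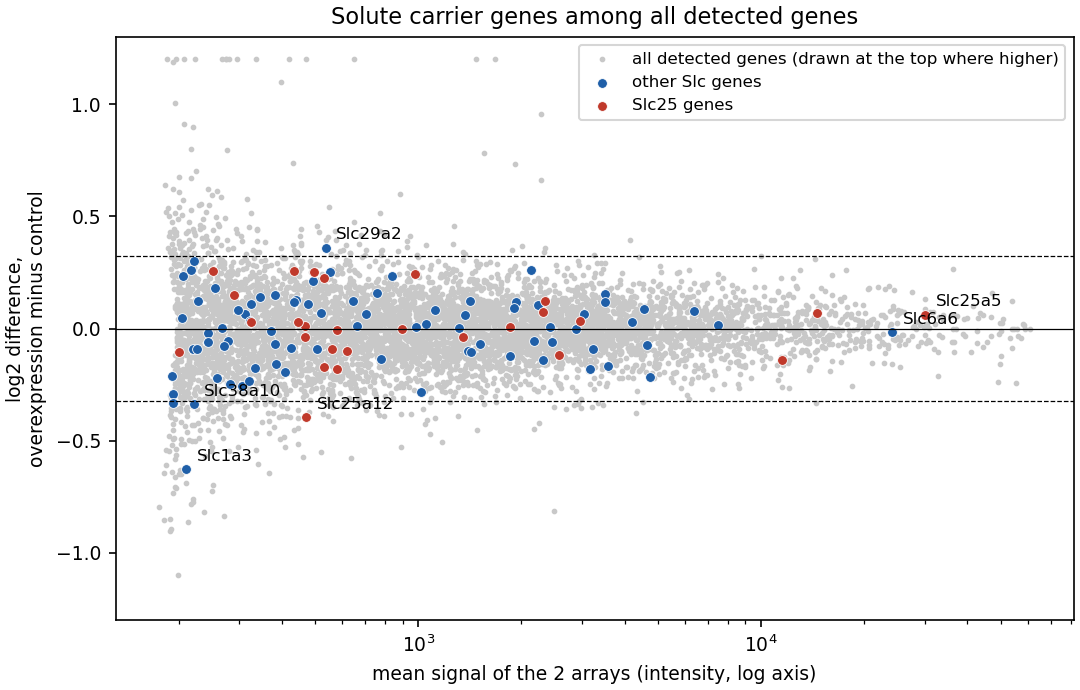
Log2 difference (overexpression minus control) of each detected gene against its mean signal over the 2 arrays on a log axis, with 27 Slc25 genes in red, 81 other solute carrier genes in blue and all 6702 genes in grey; dashed lines mark differences of 0.32 in either direction. The solute carrier genes lie within the grey cloud, and those past the lines have signals below 571.

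Slc29a2 was the only solute carrier gene higher by 0.32 or more. It encodes an equilibrative nucleoside transporter, which moves nucleosides and nucleobases across the plasma membrane. Its signal was 579 on the overexpression array and 496 on the control array, and its normalized difference was 0.36, or 1.28-fold. In the authors' deposited table the difference was 0.30, below the size used for counting. Of its relatives, the plasma membrane transporter gene Slc29a1 had signals of 2787 and 2982 and a difference of 0.000, and Slc29a3, which encodes a lysosomal nucleoside transporter, had signals of 1944 and 1912 and a difference of 0.12 (overexpression first in each pair).

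Slc25a12 had the lowest difference among genes detected on both arrays. It encodes aralar, the aspartate-glutamate carrier of excitable tissues, which serves the malate-aspartate shuttle that brings reducing equivalents into mitochondria. Its signal was 406 on the overexpression array and 535 on the control array, a difference of -0.39, or 1.31-fold lower. It was -0.36 with an offset of 50 in the background correction and -0.50 with median scaling. Without background correction and in the authors' deposited table it was -0.319, just short of the counting size of 0.322. Slc38a10, which encodes an amino acid transporter related to the glutamine carriers, had a signal of 203 on the overexpression array and 240.03 on the control array, near the lowest detected signals of 196 and 201. Its difference was -0.34, or 1.26-fold lower, and it was -0.20 in the authors' deposited table.

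The other 2 genes counted as lower were detected on the control array only. Slc1a3, which encodes a glutamate and aspartate transporter known from astrocytes, had a signal of 182 on the overexpression array and 239 on the control array. Its fitted difference was -0.63, and as a bound on the background-corrected and normalized scale it was at least 1.34-fold lower. Such bounds hold for that scale only: the difference of Slc1a3 was -0.25 without background correction and -0.36 in the authors' deposited table, both smaller than the bound. A bound sets the array with signal against the higher of the lowest detected value and the gene's own value on the dim array. Slc35a5, a relative of the nucleotide sugar transporters, had signals of 179 on the overexpression array and 208 on the control array, with a fitted difference of -0.33 and a bound of at least 1.06-fold lower. Both were dim and not detected on the overexpression array, so the fitted values depend on the background model.

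Of the remaining genes detected on 1 array, 3 had a negative and 1 a positive fitted difference, with bounds on the same scale. Slc22a4, which encodes a carrier of ergothioneine and carnitine, was not detected when Oxi-beta was overexpressed. It was at least 1.04-fold lower at signals of 180.02 and 206 (overexpression, then control). Slc25a13, which encodes citrin, the liver form of the aspartate-glutamate carrier, was at least 1.05-fold lower at signals of 193 and 207 in the same order. For the fatty acid transporter gene Slc27a1, with signals of 181 and 201, no bound above 1 was obtained. Slc35a2, which encodes the UDP-galactose transporter of the Golgi, was the only one detected on the overexpression array alone, with a signal of 213 there, against 199 on the control array. Its level was at least 1.16-fold higher on the corrected scale, and its difference was 0.12 without background correction and 0.13 in the authors' deposited table.

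The detection threshold itself passed through a run of dim probes. Just inside it were Slc22a4 and Slc27a1, with a lowest detection p-value of 0.0097 each. Just outside were probes of Slc10a4, Slc10a7 and Slc36a1, each at 0.0109, with differences of -0.32, -0.15 and 0.15. A probe of Slc37a3, also outside at 0.0109, had signals of 153 on the overexpression array and 200.3 on the control array and a fitted difference of -0.72, wider than that of any member. The 36 probes that were not detected had mean signals of 138 to 192.

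**Figure D2:**
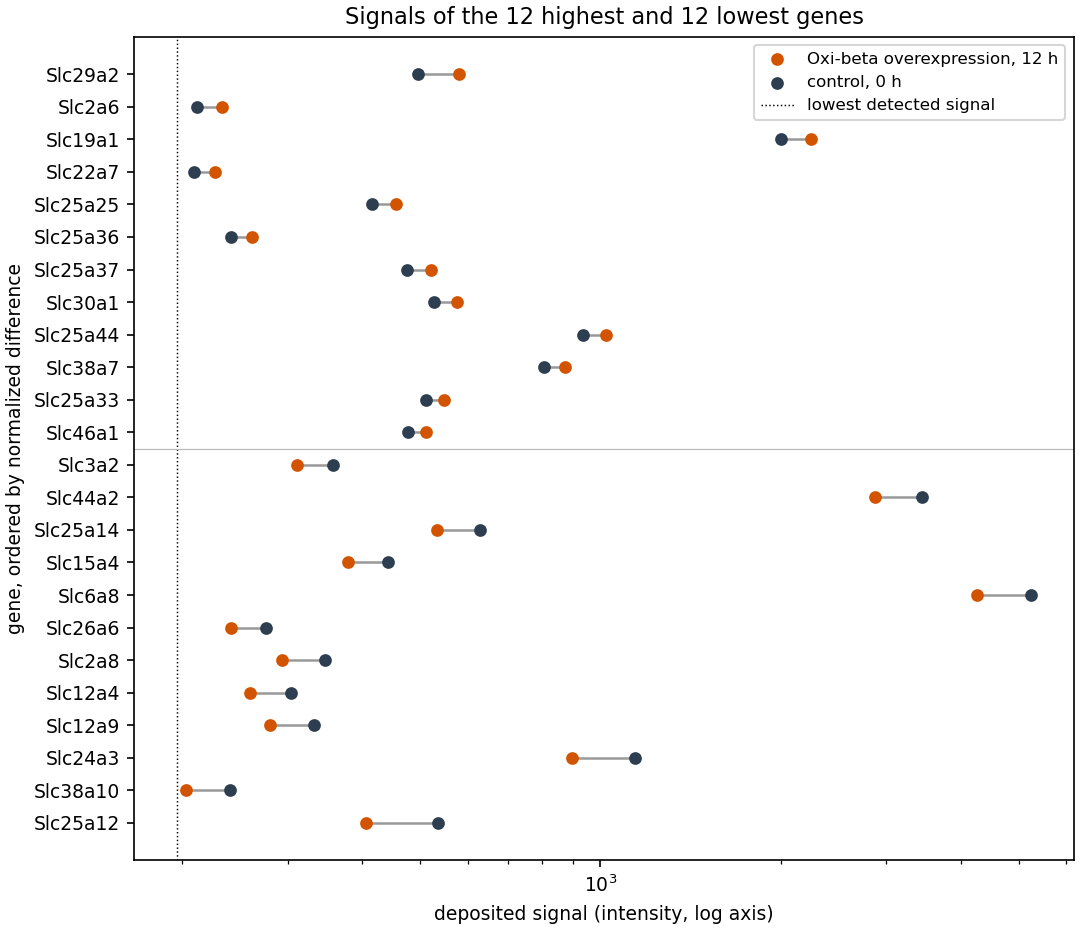
Deposited signals (log axis) of the 12 highest and the 12 lowest solute carrier genes by difference among those detected on both arrays, with the overexpression array in orange and the control array in dark blue. The gap within a gene is small beside the range of signals, and Slc38a10 and Slc22a7 lie near the lowest detected signal of 196.

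The windows before the start sites of 6 members are shown, because interferon target genes are known to carry a sequence to which the factor ISGF3 binds, and Irf9, its DNA-binding subunit, was higher by 2.31 on the log2 scale on these arrays. The letters GAAANNGAA, or TTCNNTTTC on the other strand, a part of that sequence, were searched in the 250 bases before each start in the RefSeq promoter table (build GRCm38.p6), overlapping matches included. Slc29a2 has the highest difference among members detected on both arrays and Slc25a12 the lowest, while Slc25a15, Slc25a22, Slc38a4 and Slc38a9 are the members that held these letters, each shown for the start where they lie. The first 3 windows are chr19:5023756-5024005 on the plus strand for Slc29a2, chr2:71367756-71368005 on the minus strand for Slc25a12 and chr8:22398622-22398871 on the minus strand for Slc25a15. The other 3 are chr7:141435376-141435625 on the minus strand for Slc25a22, chr15:97055957-97056206 on the minus strand for Slc38a4 and chr13:112660516-112660765 on the plus strand for Slc38a9. Capitals mark the interferon letters, and each window is written 5′ to 3′ on the gene's strand, ending at the base before the start.
Slc29a2: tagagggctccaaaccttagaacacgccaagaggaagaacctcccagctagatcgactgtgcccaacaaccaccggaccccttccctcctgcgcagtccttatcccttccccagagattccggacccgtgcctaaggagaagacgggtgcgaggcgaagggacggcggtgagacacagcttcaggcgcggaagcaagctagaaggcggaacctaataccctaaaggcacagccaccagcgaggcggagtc
Slc25a12: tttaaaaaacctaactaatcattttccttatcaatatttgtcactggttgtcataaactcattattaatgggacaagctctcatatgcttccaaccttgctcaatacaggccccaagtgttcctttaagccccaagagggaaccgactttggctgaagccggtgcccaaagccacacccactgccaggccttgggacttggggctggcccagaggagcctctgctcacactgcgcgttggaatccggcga
Slc25a15: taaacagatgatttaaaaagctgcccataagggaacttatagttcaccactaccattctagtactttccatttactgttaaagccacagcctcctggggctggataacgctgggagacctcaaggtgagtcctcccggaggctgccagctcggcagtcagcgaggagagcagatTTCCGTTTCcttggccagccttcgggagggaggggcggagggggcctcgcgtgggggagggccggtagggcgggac
Slc25a22: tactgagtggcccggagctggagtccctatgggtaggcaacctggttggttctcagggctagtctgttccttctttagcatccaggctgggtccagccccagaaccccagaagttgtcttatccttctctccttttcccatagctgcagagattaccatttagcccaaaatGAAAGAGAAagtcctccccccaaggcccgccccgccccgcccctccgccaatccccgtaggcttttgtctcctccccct
Slc38a4: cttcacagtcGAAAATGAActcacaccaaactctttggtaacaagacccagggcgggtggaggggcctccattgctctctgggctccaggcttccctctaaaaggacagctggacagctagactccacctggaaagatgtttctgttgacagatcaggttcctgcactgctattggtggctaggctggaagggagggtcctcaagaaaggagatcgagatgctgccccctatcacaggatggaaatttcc
Slc38a9: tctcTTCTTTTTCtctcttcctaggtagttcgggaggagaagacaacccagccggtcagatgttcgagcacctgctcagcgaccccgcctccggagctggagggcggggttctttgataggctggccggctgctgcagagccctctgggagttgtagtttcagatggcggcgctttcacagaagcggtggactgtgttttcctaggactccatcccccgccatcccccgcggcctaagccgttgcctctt

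Of the 108 members, 87 had a window, and 4 of these (4.6%) held the interferon letters. Over all 27025 genes of the table the share was 8.18%, and over the 5534 detected genes with a window it was 6.61%. In Slc25a15, the gene of the mitochondrial ornithine carrier, the run TTCCGTTTC lay 76 to 68 bases before 1 of its starts. The signal of Slc25a15 was 869 on the overexpression array and 924 on the control array, a difference of -0.0024. In Slc25a22, which encodes a mitochondrial glutamate carrier, GAAAGAGAA lay 79 to 71 bases before 1 of its starts. The signal was 560 on the overexpression array and 599 on the control array, a difference of -0.0079. The amino acid carrier gene Slc38a4 held GAAAATGAA 240 to 232 bases before 1 of its starts, and had signals of 651 on the overexpression array and 642 on the control array, a difference of 0.12. Slc38a9 held TTCTTTTTC 246 to 238 bases before its start, and had signals of 231 on the overexpression array and 225 on the control array, a difference of 0.12. None of these 4 members reached 0.32 in either direction, but 94.5% of all detected genes did not reach it either. The letters TGATGNAA, or TTNCATCA on the other strand, known from binding of the stress factors ATF4 and CHOP, lay before 1 member (1.15%), Slc50a1, against 2.06% of the detected genes. The E-box letters CACGTG, which read the same on both strands, lay before 16 members (18.4%), against 10.2% of the detected genes. A match is a run of letters and not a binding site.

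Of 2 carriers listed as interferon-induced, 1 was detected, and its difference was negative. Slc25a28, the mitochondrial iron importer mitoferrin-2, is known as an interferon-induced gene in human cells, and here its signal was 2408 on the overexpression array and 2753 on the control array, a difference of -0.12. Slc15a4, a transporter of histidine and peptides in endolysosomes that is needed in mice for interferon production downstream of endosomal receptors, had signals of 378 on the overexpression array and 442 on the control array, a difference of -0.20. Slc15a4 was not on the list and is named here as 1 of the 12 lowest genes detected on both arrays. Slc15a3, the other carrier listed as interferon-induced, had no named probe.

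The mitochondrial and peroxisomal SLC25 carriers showed no common direction. Of 27 genes, 15 had a positive and 12 a negative difference, with a median of 0.012, and the 81 other solute carrier genes had a median of 0.0050. In the SLC25 family, 0 genes were higher by 0.32 or more and 1 was lower by as much, which is 3.70% of the family against 2.83% of all genes.

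The ADP/ATP carrier genes and the phosphate carrier gene of mitochondria differed little between the arrays. Slc25a5, which encodes an ADP/ATP carrier, had a signal of 30667 on the overexpression array and 29646 on the control array, a difference of 0.061. Its paralog Slc25a4 had signals of 1294 on the overexpression array and 1409 on the control array, a difference of -0.037. Slc25a3, the phosphate carrier gene, had signals of 14566 on the overexpression array and 14497 on the control array, a difference of 0.067. For relatives of the uncoupling proteins, with signals of 456 to 533 on the overexpression array and 477 to 628 on the control array, differences were -0.18 for Slc25a14, -0.093 for Slc25a27 and 0.012 for Slc25a30. None of these genes reached 0.32 in either direction, which was also so for 94.5% of all detected genes.

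Genes of the malate-aspartate shuttle and of other metabolite carriers were mixed. Beside Slc25a12, the shuttle uses the oxoglutarate-malate carrier Slc25a11, whose brighter probe had signals of 2311 on the overexpression array and 2326 on the control array and a difference of 0.073. Its dim probe had signals of 290.3 and 335 in the same order and a difference of -0.20, so the 2 probes disagreed in sign. Slc25a1, the citrate carrier gene, was at -0.10, and Slc25a10, the dicarboxylate carrier gene, at 0.0066. Slc25a26, which imports S-adenosylmethionine, was at -0.17, and Slc25a38, which imports glycine for heme synthesis, at -0.039. Slc25a17, a carrier of cofactors in peroxisomes rather than mitochondria, was at 0.12.

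Of the 12 highest solute carrier genes detected on both arrays, 5 belonged to the SLC25 family, and each was under 0.32. The family made up 26 of the 102 solute carrier genes from which these 12 were taken. Slc25a25, a calcium-regulated carrier of ATP-magnesium and phosphate, had signals of 455 on the overexpression array and 415 on the control array, a difference of 0.26. Slc25a33 and Slc25a36, which carry pyrimidine nucleotides, were at 0.22 and 0.26, and Slc25a44, which imports branched-chain amino acids, was at 0.24. Slc25a37, which encodes mitoferrin-1, had signals of 520 on the overexpression array and 474 on the control array, a difference of 0.25, whereas mitoferrin-2 was at -0.12. The family also held 2 of the 12 lowest genes, Slc25a12 and Slc25a14. Slc25a39, which carries glutathione into mitochondria, had signals of 10643 on the overexpression array and 12345 on the control array and a difference of -0.14.

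Proteins of the SLC25 family reach the inner membrane through the outer membrane translocase and the small Tim chaperones. Of 15 genes of this import route, 9 were detected, 5 with a positive and 4 with a negative difference and a median of 0.037. At 0.32, 0 were higher and 1 was lower, against 2.7% and 2.83% of all detected genes. The lower gene was Tomm40, the channel of the outer membrane translocase, with a difference of -0.40. Its signals were 212 on the overexpression array, close to the lowest detected signal of 196, and 258 on the control array. Of 10 further mitochondrial channels and carriers with other names, 6 were detected, with a median of -0.011, and the outer membrane channel gene Vdac1 was highest at 0.19. None of the 6 reached 0.32 in either direction.

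**Figure D3:**
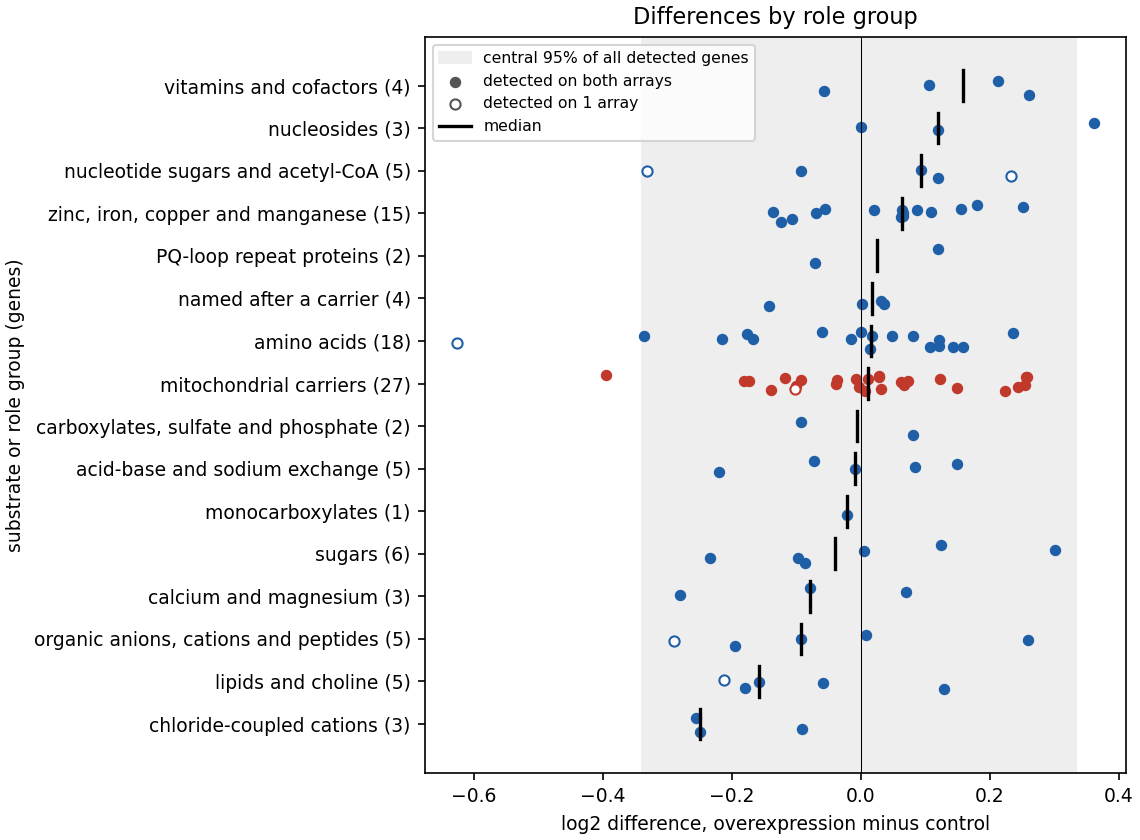
Log2 difference (overexpression minus control) of the 108 genes by substrate or role group, with the number of genes in brackets, mitochondrial carriers in red, open circles for genes detected on 1 array and a black bar at each group's median; the grey band is the central 95% of all detected genes, -0.34 to 0.33. The 27 mitochondrial carriers are centred at 0.012, and the group medians run from -0.25 to 0.16.

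Amino acid carriers had a median of 0.015 over 18 genes, 11 positive and 7 negative. Slc38a7, which carries glutamine out of lysosomes, had signals of 872 on the overexpression array and 805 on the control array, and its difference of 0.24 was the highest of the group. Slc38a9 encodes an arginine-sensing lysosomal protein upstream of mTORC1, and its difference of 0.12 is given above. Slc6a8, the creatine transporter gene, had signals of 4262 on the overexpression array and 5245 on the control array and a difference of -0.21, the lowest among the 27 solute carrier genes in the bright tercile. Slc6a6, the taurine transporter gene, had signals of 23650 on the overexpression array and 24549 on the control array and a difference of -0.016.

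Of 9 amino acid transporters known as targets of the stress factor ATF4, 7 were detected, 4 with a positive and 3 with a negative difference. None reached 0.32 in either direction, and the same holds for 94.5% of all detected genes. Slc7a5 and Slc3a2 encode the light and the heavy chain of a transporter of large neutral amino acids. Slc7a5 had signals of 7395 on the overexpression array and 7591 on the control array, a difference of 0.017, and Slc3a2 had signals of 311 on the overexpression array and 357 on the control array, a difference of -0.18. Slc1a4 and Slc1a5, carriers of small neutral amino acids and glutamine, were at -0.17 and 0.11. Slc38a2, an inducible carrier of neutral amino acids, was at 0.080, the glycine transporter gene Slc6a9 at -0.060 and the cationic amino acid transporter gene Slc7a3, near background, at 0.048.

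Carriers of zinc and other metals had a median of 0.063 over 15 genes, 10 positive and 5 negative. Slc30a1, which exports zinc across the plasma membrane and is known as a target of the metal-sensing factor MTF1, was the highest, with signals of 575 on the overexpression array and 527 on the control array and a difference of 0.25. Slc30a7, a zinc carrier of the Golgi, was the lowest at -0.14. The ZIP zinc importers (SLC39 family) had 5 positive and 1 negative of 6 genes, from -0.12 to 0.11. Slc11a2, the divalent metal transporter gene, was at -0.069, the copper importer gene Slc31a1 at -0.055 and the heme transporter gene Slc48a1 at 0.065.

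Vitamin and cofactor carriers had the highest group median, 0.16 over 4 genes. The folate carrier gene Slc19a1 had signals of 2248 on the overexpression array and 2007 on the control array, a difference of 0.26. It was the highest solute carrier gene of the bright tercile. Slc46a1, the proton-coupled folate transporter gene, had signals of 511 on the overexpression array and 478 on the control array and a difference of 0.21. Slc19a2, a thiamine transporter gene, was at 0.11, and the ascorbate transporter gene Slc23a2 at -0.057. Slc5a6, which carries biotin and pantothenate but was grouped by family with the sugar carriers, was at 0.12.

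The cation-chloride cotransporters (SLC12 family) had the lowest group median, -0.25, and all 3 detected members were negative. Slc12a4, a potassium-chloride cotransporter gene, had signals of 259 on the overexpression array and 304 on the control array, a difference of -0.25. Slc12a9, an orphan relative, had signals of 281 on the overexpression array and 333 on the control array, a difference of -0.26. Slc12a7, another potassium-chloride cotransporter gene, was at -0.091. Among kinases that regulate these cotransporters, Stk39 was at -0.28 with signals of 917 on the overexpression array and 1169 on the control array, Wnk1 at -0.083 and Oxsr1 at 0.056. Wnk4 was detected on the control array only, with a fitted difference of -0.18. Its signals were 196 on the overexpression array and 215 on the control array. No gene among these reached 0.32 in either direction, as was so for 94.5% of all detected genes, and the group is small.

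Sugar carriers spread to both sides around a median of -0.041 over 6 genes. Slc2a1, the common glucose transporter gene, had signals of 1310 on the overexpression array and 1476 on the control array, a difference of -0.098, and the neuronal glucose transporter gene Slc2a3 was at 0.0050. Slc2a6 and Slc2a8, intracellular members of the glucose transporter family, were at 0.30 and -0.23. Slc2a6 had signals of 233 on the overexpression array and 211 on the control array, close to the lowest detected signal, and was at 0.18 in the authors' deposited table.

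Lipid and choline carriers had 1 positive and 4 negative genes, with a median of -0.16. Slc44a2, a choline transporter-like gene, had signals of 2873 on the overexpression array and 3450.5 on the control array, a difference of -0.18. Slc27a3, of the fatty acid transport family, was highest at 0.13. Among carriers of ions, Slc24a3, a sodium-calcium-potassium exchanger gene, had signals of 896 on the overexpression array and 1142 on the control array, and its difference of -0.28 was the lowest among the 26 solute carrier genes of the middle tercile. The magnesium transporter gene Slc41a2 was at 0.070. Acid-base carriers had a median of -0.0089 over 5 genes, from Slc26a6, an anion exchanger gene, at -0.22 to Slc9a8, a sodium-proton exchanger gene of the Golgi, at 0.15. Slc4a2, an anion exchanger gene with signals of 4424 on the overexpression array and 4903 on the control array, was at -0.073. Both detected probes of Slc9a8 were positive, at 0.15 and 0.29.

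The nucleotide sugar carriers had a median of 0.093 over 5 genes, and organic ion and peptide carriers one of -0.093 over 5 genes, with Slc22a7, an organic anion transporter gene near background, highest at 0.26. The 4 genes named after a carrier lay between -0.14 for Slc7a6os and 0.035 for Slc9a3r2. ABC transporters, which pump substrates with ATP, had a median of 0.0051 over 10 detected genes. Of these, 9 (90%) differed by less than 0.32, against 95.4% of the solute carrier genes and 94.5% of all genes, and 10 genes are too few to compare these shares. Of 17 partners and regulators of carriers, 11 were detected, with a median of 0.0023, and of 7 sodium pump genes 3 were detected, with a median of -0.015. None of these 14 detected genes reached 0.32 in either direction. Bsg, the chaperone of monocarboxylate transporters, was at 0.0075.

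The number of extreme members past 0.32 depended on the processing. The 12 highest and 12 lowest genes detected on both arrays were chosen by their differences on these arrays, so their signs under other processing of the same signals are a description. The 12 highest genes stayed positive and the 12 lowest stayed negative with the offset raised to 50, with median scaling, without background correction and in the authors' deposited table. Among the 12 highest, the number at 0.32 or more was 1 with an offset of 50 and 0 in the other 3 cases. Of all 6702 detected genes, 1.91% were higher by as much with an offset of 50 and 1.39% with median scaling. The share was 1.01% without background correction and 1.15% with the authors' values. Among the 12 lowest, the number lower by 0.32 or more was 1 with an offset of 50, 6 with median scaling and 0 in the other 2 cases. Of all genes, 2.01% were lower by as much with an offset of 50 and 7.58% with median scaling, which put the median of all genes at -0.10. The share was 0.880% without background correction and 1.15% with the authors' values. Genes detected on 1 array are not among these 24, and of them Slc27a1 had a fitted difference of -0.21 and one of 0.0012 at its bound.

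**Figure D4:**
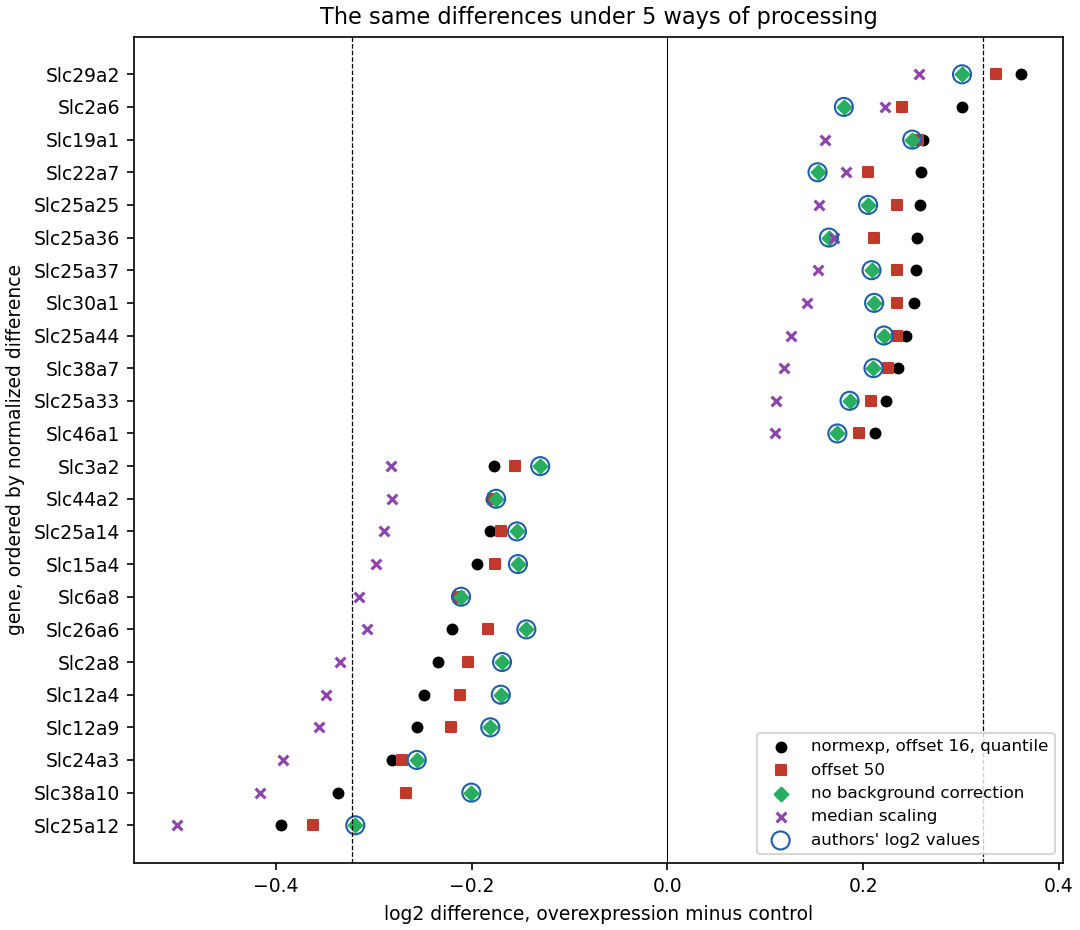
Log2 difference (overexpression minus control) of the 12 highest and 12 lowest solute carrier genes detected on both arrays under 5 ways of processing; dashed lines mark differences of 0.32 in either direction. Each gene keeps its sign, and median scaling, which puts the median of all genes at -0.10, moves every gene to the left.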

How the data were processed

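Per the labels' protocols, total RNA was amplified to biotinylated cRNA. BeadStudio is the tool in the submitters' processing notes, with its version not given in the sources used here. Per the file headers, the deposited table gives each probe's non-normalized signal intensity and detection p-value per array. The authors' value table holds log2 values of 11090 probes, those past a detection p-value of 0.05 on either array. Both its columns contain 1 set of values in different order, as quantile normalization gives, with a median of 9.19 in each. This step and the log2 scale are read from the values, and single genes are not centred. The test column was matched to the overexpression sample, and the authors' values of that sample correlated across probes with its log2 signal at r = 0.99998 (0.99613 with the control signal).

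Signals were background-corrected with limma 3.58.1 in R 4.3.3 (nec, offset 16, fitted from the detection p-values), quantile-normalized and log2-transformed. The steps were also run on simulated data, in which only brighter probes were changed, by about 1.5-fold or more. That run did not cover changes in dim probes or smaller changes. A gene was its brightest named probe. Signals of different probes are not comparable as mRNA levels. With 1 array per group there was no test, and precision is limited by the number of arrays. Symbols came from the platform's annotation, with 0 outdated among members in mouse RefSeq (GRCm38.p6). Named genes were the 12 highest and 12 lowest, those detected on 1 array, the 8 brightest, the extremes of role groups of 3 or more, and members of the lists, with others named as examples of their group after their values were seen. Members, lists and groups were chosen with earlier results of these data known, and the SLC66 group was added after the files were seen. The interferon letters were shortened after a longer form had been searched.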

Additional observations from a re-analysis of the deposited data

How the results depend on the processing

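With median scaling the medians of all solute carrier genes, of the SLC25 genes and of the others turned negative, at -0.099, -0.091 and -0.10, where all genes had a median of -0.10. Relative to it, the solute carrier median was 0.0015. With a detection threshold of 0.05 the medians of all solute carrier genes and of the others were -0.0012 and -0.016. The SLC25 median minus that of the others ran from 0.0016 to 0.027. The count of genes higher by 0.32 or more was 1, but 0 with median scaling (1.39% of all genes), without background correction (1.01%) and with the authors' values (1.15%), and 2 of 130 with a detection threshold of 0.05 (4.56%). The count of genes lower by 0.32 or more was 4, but 2 with an offset of 50 (2.01% of all genes), 9 with median scaling (7.58%), 0 without background correction (0.880%), 1 with the authors' values (1.15%), 8 of 130 with a detection threshold of 0.05 (4.57%), 2 of 102 among genes detected on both arrays (2.07%) and 3 with bounds (2.25%). The count at 1.5-fold or more lower was 1 (0.433% of all genes). It was 0 with an offset of 50, without background correction, with the authors' values and with bounds. It was also 0 among genes detected on both arrays (0.0927%), and 2 of 130 with a detection threshold of 0.05. The share of all genes at 1.5-fold is not given here for the other settings. Fewer or more genes were counted where detection changed. The cause of the other shifts was not tested. The fitted difference of Slc1a3 ran from -0.71 to -0.25. Leaving out the 4 genes that are no carriers, an alternative added after seeing the data, left each count as it was. Low signal over background limits the dim genes. No paired analysis was possible because each group had 1 array.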
